A study of Mus musculus with 29 samples.

Results

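Untreated colons of Cygb-/- and WT mice were compared on 16 of the 29 arrays of the series, 8 of Cygb-/- mice and 8 of WT mice. The arrays were chosen by their genotype and treatment alone, and the comparison asks which transcripts differ when the gene is lost and no inflammation has been induced. All mice were adult C57BL/6 females aged 18 to 24 weeks, and total RNA came from the distal colon. The remaining 13 arrays came from mice given the carcinogen azoxymethane (AOM) and dextran sulfate sodium (DSS), an agent that injures the colonic epithelium. Those 5 Cygb-/- and 8 WT arrays are used only where the untreated values are set beside treated ones. The labels give those mice 1 cycle of DSS and killing in week 5, and the methods of the study 2 cycles and week 7, so that the length of their treatment is not settled here.

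The Cygb-/- mice lack exon 2 of Cygb in every cell, which removes both heme-binding sites and shifts the reading frame. The allele was made in embryonic stem cells of another strain and was crossed into C57BL/6 for several generations. WT and Cygb-/- mice then came from separate WT and Cygb-/- lines, bred from the offspring of shared heterozygous pairs. All Cygb-/- mice may therefore share a stretch of chromosome 11 from the other strain around the allele, and the effects of the missing exon and of that stretch cannot be told apart in this design. The arrays were labelled as separate biological replicates.

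Cytoglobin is a globin whose heme iron is held by a pair of histidines, one of which gives way when oxygen, nitric oxide or carbon monoxide binds. It is found mainly in fibroblast-like and stellate cells and in vascular smooth muscle, and it is known for removing nitric oxide and for limiting oxidative damage. In the colon the study saw the protein in interstitial cells around the crypts. It reports more Cygb mRNA in organoids grown from colonic crypts than in intact colons, and places most of the mRNA in epithelial cells.

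The arrays carried 41345 probe sets, of which 23521 were annotated to a single gene and represented 22180 genes. Values are on a log2 scale, so that a difference of 1 is a doubling. Array medians lay between 4.77 and 4.88, the lower quartile of each array lay between 3.31 and 3.37, and any pair of untreated arrays correlated at 0.976 to 0.990 over probe sets. The 17 Y-linked genes, which female mice lack, had mean log2 values between 1.87 and 5.26 with a median of 2.42, and no single value above 5.49. The signal of an absent transcript thus depends on its probe set. Mean levels of the marker lists were highest for absorptive colonocytes (11.1 in Cygb-/- and 11.1 in WT colons), goblet cells (10.8 in Cygb-/- and 10.7 in WT colons) and smooth muscle (10.1 in Cygb-/- and 10.2 in WT colons). With bulk RNA, fewer cells of a type and less RNA per cell cannot be told apart.

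Few genes differed between the untreated genotypes. With limma, 9 of 41345 probe sets (0.0218%) passed an adjusted p of 0.05, 5 higher (0.0121%) and 4 lower (0.00967%) in Cygb-/- colons. Each represented a single gene. The genes were Cygb, BC018473, Abca5, Mettl23, Tmem94, Nags, Kpna2 and Llgl2, all on chromosome 11, and Mir105 on the X chromosome. Differences of at least 1.5-fold were called for BC018473 and Abca5, which were higher in Cygb-/- colons, and for Cygb and Mettl23, which were lower.

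The remaining genes were described by how large a difference the data allow. The 95% interval of the difference lay inside 1.5-fold for 21731 genes (98.0%). The median difference over all genes was near 0, at -0.00068, and 11020 genes (49.7%) had a positive difference. The median standard deviation within a genotype was 0.159. At an unadjusted p below 0.05, 1779 genes (8.02%) were found, and for 41 genes (0.185%) the 8 Cygb-/- values and the 8 WT values did not overlap. The counts of 5 and 4 moved with the probe sets tested and the variance model: 14 were higher and 20 lower when only probe sets with a mean of at least 5 were tested, 9 and 12 with only singly annotated ones, and 11 and 12 with a trended, robust variance. Without Cygb-/- replicate 8 or WT replicate 2, 7 were lower.

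**Figure D1:**
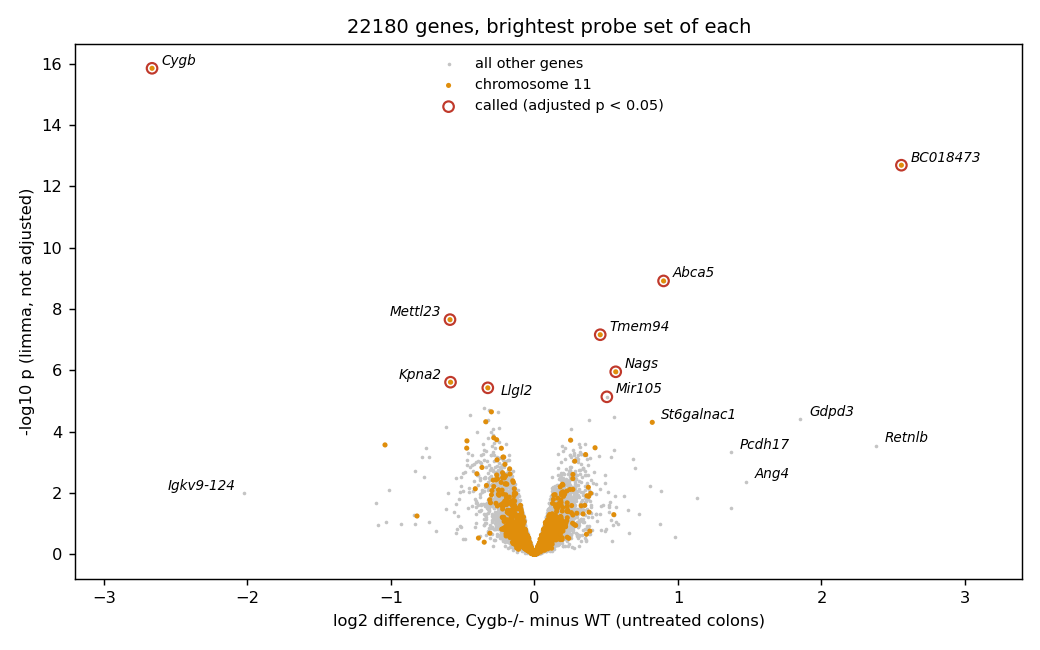
Differences of all 22180 genes between untreated Cygb-/- and WT colons. The horizontal axis is the log2 difference, Cygb-/- minus WT, and the vertical axis is -log10 of the unadjusted p from limma. Orange points are genes of chromosome 11, grey points all others, and red rings mark the 9 called genes, 8 of which are orange. Retnlb and Gdpd3 lie far to the right without a ring.

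Cygb itself served as the check of the labels. Its log2 value was 5.84 at the lowest, 6.12 at the median and 6.41 at the highest in Cygb-/- colons, against 8.57, 8.74 and 8.98 in WT colons. The groups lay more than 2 units apart. The difference was -2.66 (standard error 0.08, adjusted p = 5.89e-12), or 6.34-fold higher in WT colons. The lowest Cygb-/- value of 5.84 lay just above the highest single value of the Y-linked genes, 5.49. The exon that each probe of the set matches is not given in the sources used here.

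BC018473, a long non-coding RNA gene, showed the largest increase. It ranged over 5.77, 6.11 and 6.63 (lowest, median and highest) in Cygb-/- colons, against 3.35, 3.55 and 3.92 in WT colons. Every Cygb-/- array lay above every WT array, and the WT values were close to the lower quartile of the arrays. The difference was 2.56 (standard error 0.12, adjusted p = 4.24e-09), a fold of 5.88. That fold may be a lower bound, since the WT signal lay so low, but the background of this probe set was not measured.

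Abca5, which encodes a lysosomal ABC transporter, had values of 6.08, 6.23 and 6.34 in Cygb-/- colons, against 4.97, 5.35 and 5.51 in WT colons. The groups did not overlap. The difference was 0.90 (standard error 0.07, 95% interval 0.74 to 1.06, adjusted p = 1.67e-05), or 1.87-fold. Mettl23, a member of the methyltransferase-like family, ran the other way, with 5.86, 6.06 and 6.19 in Cygb-/- colons and 6.50, 6.66 and 6.71 in WT colons. Again no Cygb-/- array reached a WT array. The difference was -0.59 (standard error 0.06, 95% interval -0.71 to -0.46, adjusted p = 0.000229).

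Of the smaller differences, that of Tmem94, which encodes a membrane protein of the endoplasmic reticulum, rested on values of 8.57, 8.76 and 8.83 in Cygb-/- colons, against 8.16, 8.28 and 8.42 in WT colons. The difference was 0.46 (standard error 0.05, adjusted p = 0.000568), with no overlap. Nags makes N-acetylglutamate, the activator that the first enzyme of the urea cycle needs. Its values were 6.93, 7.11 and 7.35 in Cygb-/- colons and 6.36, 6.52 and 6.83 in WT colons. The groups did not overlap, and the difference was 0.57 (standard error 0.08, adjusted p = 0.00765). A second probe set of Nags did not pass, with means of 5.47 in Cygb-/- and 5.36 in WT colons (adjusted p = 0.919), so that the 2 measurements of this gene disagreed.

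Kpna2, an importin that carries proteins into the nucleus, had values of 6.44, 6.57 and 7.10 in Cygb-/- colons, against 7.06, 7.23 and 7.34 in WT colons. Of the Cygb-/- arrays, 7 of 8 lay below every WT array, and replicate 8 fell inside the WT range. The difference was -0.58 (standard error 0.08, adjusted p = 0.0143). Llgl2 helps to set the basolateral side of epithelial cells. It had 8.60, 8.74 and 8.80 in Cygb-/- colons and 8.95, 9.03 and 9.20 in WT colons, a narrow gap without overlap, and the difference was -0.32 (standard error 0.05, adjusted p = 0.0191).

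The calls differed in how firmly they held. Cygb, BC018473, Abca5 and Mettl23 passed in every alternative in which they were fitted. Nags, Kpna2 and Llgl2 kept their size but not their call when arrays were left out. Without the 3 arrays highest for adipose markers the differences were 0.53, -0.60 and -0.33 (adjusted p = 0.154, 0.153 and 0.167), against 0.57, -0.58 and -0.32 with all 16 arrays. Without the 2 WT arrays high for squamous markers those of Kpna2 and Llgl2 were -0.58 and -0.31 (adjusted p = 0.0939 for both). Llgl2 was also lost without Cygb-/- replicate 3 or 7 or WT replicate 1, 3 or 4, with an adjusted p of up to 0.0642.

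**Figure D2:**
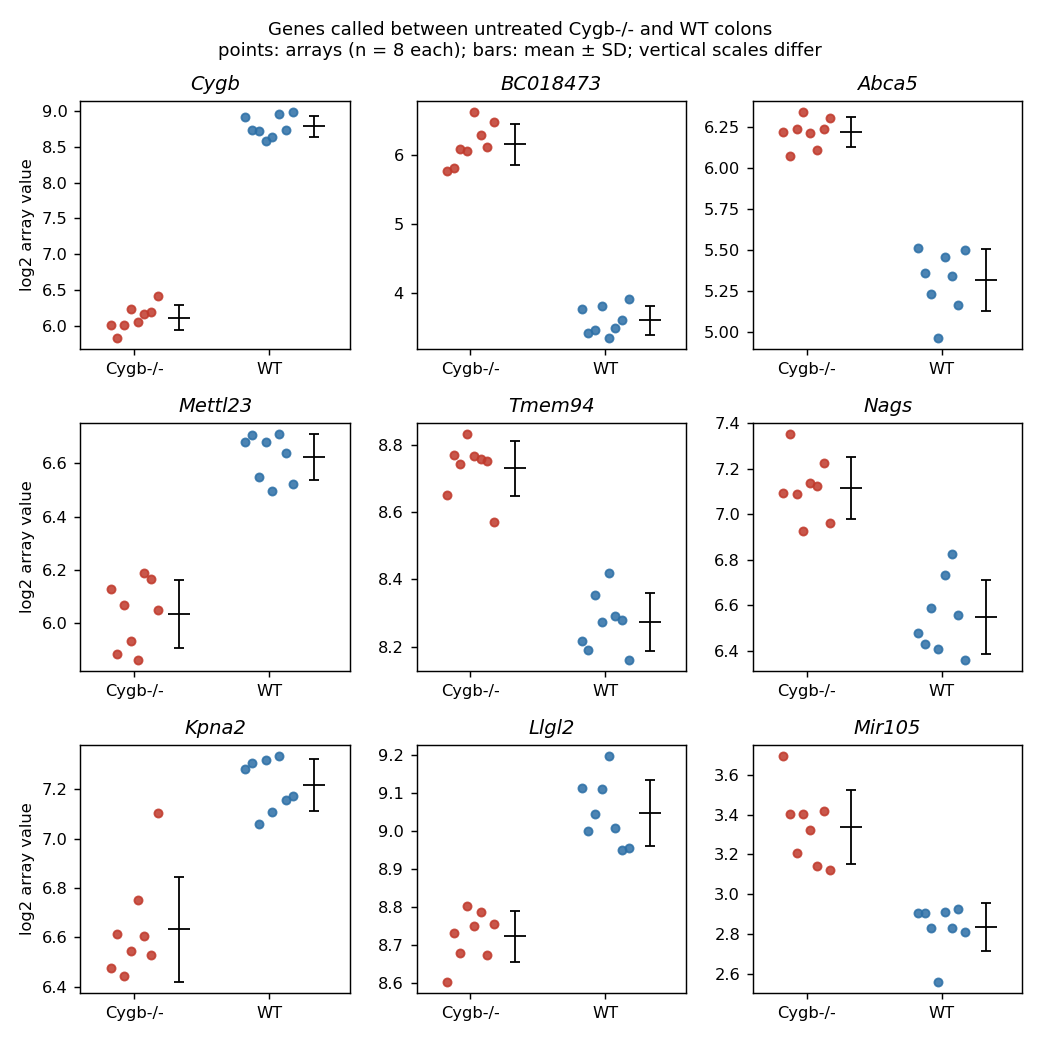
Log2 array values of the 9 called genes in untreated colons, Cygb-/- arrays (red, left) and WT arrays (blue, right). Each point is 1 of 8 arrays of its genotype, bars give the mean ± SD, and the vertical scales differ between panels. Only in Kpna2 does a Cygb-/- array, at 7.10, lie within the WT values.

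In the main test, Mir105 was the only called gene outside chromosome 11. With only probe sets of mean at least 5, 12 of 34 calls lay on that chromosome, and with a trended, robust variance 10 of 23. The mature miRNA of the Mir105 locus is shown because its seed, bases 2 to 8 in capitals, is the stretch with which a miRNA pairs to its targets. The sequence is that of RefSeq (GRCm38.p6, chrX:72591547-72591569, minus strand).
mmu-miR-105: cCAAGUGCucagaugcuuguggu
Its probe set read 3.12, 3.36 and 3.70 in Cygb-/- colons, against 2.56, 2.87 and 2.93 in WT colons. All values lay close to or below the lower quartile of the arrays, where a probe set need not report its transcript. The difference was 0.50 (standard error 0.08, adjusted p = 0.0334), and the call was lost in 12 of the 16 analyses that left out 1 array, with an adjusted p of up to 0.0988. It held without Cygb-/- replicate 1, 6 or 8 or WT replicate 2. Whether mature miR-105 was present was not measured by these arrays, which were hybridised with amplified total RNA.

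The called genes of chromosome 11 were then placed by their order among the measured genes of that chromosome. Counted from Cygb, and away from the centromere, BC018473 was gene 4 and Mettl23 gene 7. In the other direction, counted as negative, Llgl2 was gene -28, Tmem94 gene -31, Abca5 gene -89, Kpna2 gene -121 and Nags gene -214. Only 121 measured genes lay beyond Cygb on the telomeric side, so that the chromosome was sampled mostly from the other.

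Among the 100 genes within 50 positions of Cygb, 4 were called and 21 (21%) had an unadjusted p below 0.05. Between positions 51 and 100, 1 of 100 genes was called and 8% had such a p. From 101 to 200 it was 1 of 121 and 19.0%, and from 201 to 400 it was 1 of 200 and 11.5%. In the rest of the chromosome, 0 of 1127 genes were called and 7.01% had an unadjusted p below 0.05, against 1 of 20345 genes and 7.94% on all other chromosomes.

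Neighbours of the called genes did not all pass the test. St6galnac2 and St6galnac1, a pair of sialyltransferases that cap mucin-type glycans, lie at genes 3 and 5 and flank BC018473. St6galnac2 had 7.60, 7.65 and 7.79 in Cygb-/- colons and 7.81, 7.95 and 8.12 in WT colons, without overlap, but the difference of -0.30 did not pass (adjusted p = 0.0692). St6galnac1 had 5.51, 5.88 and 6.26 in Cygb-/- colons and 4.29, 5.07 and 5.52 in WT colons. Of its Cygb-/- arrays, 7 of 8 lay above every WT array, and the difference of 0.82 did not pass either (adjusted p = 0.0849). The pair had opposite signs, as did BC018473 and Mettl23.

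Closer to Cygb the differences were small. On one side, Prcd, the nearest gene, was at 0.02 and Snord1b, the next, at 0.04. The 5 nearest on the other were also small, with Rhbdf2 at -0.11, Aanat at -0.09, Ube2o at -0.15, Sphk1 at 0.06 and Prpsap1 at 0.17. None of these passed the test. The differences around Cygb had no common sign: of the 100 nearest genes, 7 were higher and 14 lower at an unadjusted p below 0.05.

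**Figure D3:**
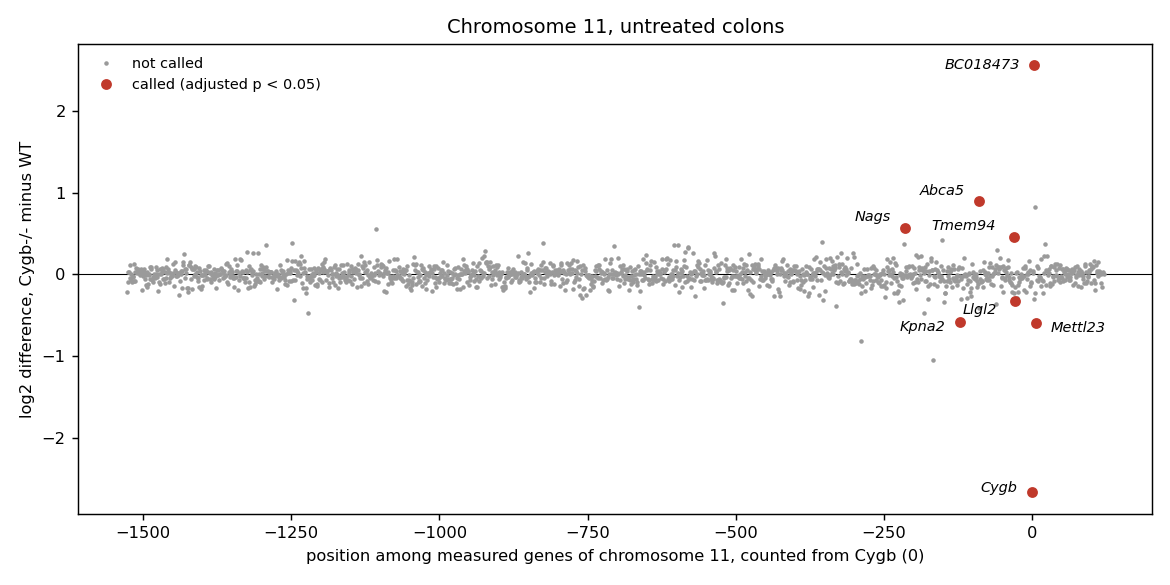
Log2 differences, Cygb-/- minus WT, of the measured genes of chromosome 11 in untreated colons, in the order of the RefSeq annotation. The horizontal axis counts genes from Cygb (0), positive toward the telomere, and red points are called. All 8 called genes lie between gene -214 and gene 7.

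The genotype difference of the same genes was measured again in the AOM/DSS-treated mice, none of which entered the untreated comparison. There, 69 probe sets (0.167%) passed for genotype. Over all probe sets, 61 (0.148%) passed the test of whether the genotype difference itself differed between treated and untreated colons. Of the 9 genes, 4 were also called in treated colons, in the same direction, namely Cygb, BC018473, Abca5 and Mettl23.

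BC018473 was the only one of the 9 whose genotype difference itself changed with treatment past the threshold. Its difference was 4.55 (standard error 0.26) in AOM/DSS-treated colons, against 2.56 (standard error 0.12) in untreated colons, and the interaction was 1.99 (standard error 0.28, adjusted p = 0.000403). Means in treated colons were 7.94 in Cygb-/- and 3.39 in WT mice, so that the WT signal stayed near the background.

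The others were steadier or less certain. The difference of Cygb was -2.73 in treated and -2.66 in untreated colons (adjusted p of the interaction = 0.963), and that of Mettl23 was -0.63 in treated and -0.59 in untreated colons (0.97). For Abca5 it was 0.61 in treated and 0.90 in untreated colons (0.531). Kpna2 had 0.04 in treated and -0.58 in untreated colons, and Tmem94 had 0.14 in treated and 0.46 in untreated colons, without the interaction passing (0.104 and 0.178). St6galnac1, not called in untreated colons, was called in treated ones, where the difference was 1.70 (standard error 0.21, adjusted p = 0.00248) from means of 6.90 in Cygb-/- and 5.20 in WT mice.

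**Figure D4:**
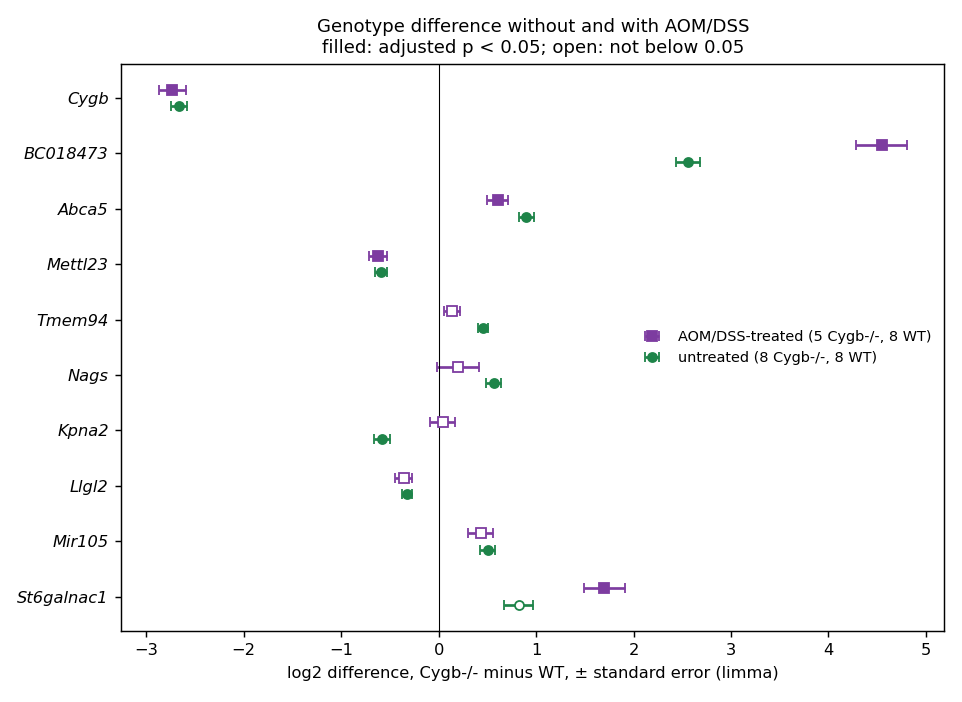
Genotype differences, Cygb-/- minus WT, on the log2 scale with the standard error from limma, for the 9 called genes and St6galnac1. Purple squares are AOM/DSS-treated colons (5 Cygb-/-, 8 WT) and green circles untreated colons (8 and 8), and filled symbols passed an adjusted p of 0.05. The difference of BC018473 is 4.55 in treated and 2.56 in untreated colons, and that of Kpna2 is 0.04 in treated and -0.58 in untreated colons.

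Several genes stood just outside the threshold. Higher in Cygb-/- colons by mean, and not passing, were Gdpd3, Htra4, Gpr160 and Cldn15. Lower by mean were Emp2, Ablim1, B4galt6 and Cyp2w1. Their adjusted p lay between 0.0617 and 0.116. Some alternatives called them: Gdpd3 passed in 5 of 13 settings other than leaving out 1 array, and Emp2 and B4galt6 in 4. Ablim1, Cyp2w1, Htra4 and Gpr160 passed in 3 of those settings and Cldn15 in 2.

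Gdpd3, a lysophospholipase D that releases lysophosphatidic acid, had 5.57, 7.60 and 8.12 in Cygb-/- colons and 4.99, 5.49 and 5.69 in WT colons. Of the Cygb-/- arrays, 6 of 8 lay at 7.57 or above, and replicates 1 and 8, at 5.57 and 5.77, lay at the top of the WT values. The difference of 1.85 (95% interval 1.14 to 2.56, adjusted p = 0.0766) did not pass, although its size was 3.61-fold. The 8 Cygb-/- arrays thus fell into a high and a low set that the labels do not separate.

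Cldn15, a claudin that forms cation pores between intestinal epithelial cells, had 9.16, 9.30 and 9.46 in Cygb-/- colons and 8.99, 9.07 and 9.14 in WT colons. The groups did not overlap (difference 0.25, adjusted p = 0.116). Htra4, a secreted serine protease, had 4.99, 5.28 and 5.67 in Cygb-/- colons and 4.41, 4.77 and 5.00 in WT colons (difference 0.55, adjusted p = 0.0766). In treated colons its difference was -0.28, against 0.55 in untreated ones, and that change passed the test (interaction -0.84, standard error 0.15, adjusted p = 0.00738).

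Among the genes lower by mean, Emp2, a tetraspan protein of epithelial membranes, had 8.40, 8.54 and 8.72 in Cygb-/- colons and 8.77, 8.85 and 9.07 in WT colons (difference -0.35, adjusted p = 0.0617). Cyp2w1, a cytochrome P450 of the developing gut, had 6.02, 6.20 and 6.31 in Cygb-/- colons and 6.38, 6.53 and 6.88 in WT colons (difference -0.45, adjusted p = 0.0766). Ablim1, an actin-binding protein, had a difference of -0.31 (adjusted p = 0.0652), and B4galt6, which makes lactosylceramide, of -0.25 (adjusted p = 0.0692). None of the 4 overlapped between genotypes.

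The methods of the study filtered for a 1.5-fold change before the test. With that filter 190 probe sets were left, and the methods' t-test, an alternative here, found 15 higher and 12 lower in Cygb-/- colons after Benjamini-Hochberg adjustment over those alone. The filter used the same arrays as the test, so that these counts are not on the footing of the limma test. Besides Cygb, BC018473, Abca5 and Mettl23, they held Gdpd3, St6galnac1, Retnlb, Pcdh17, Ahcy and Ugt2b5 among those higher by mean. Dzip1, Tpm3, Cpa3, Anxa8 and C130046K22Rik were among those lower, none of them called by limma.

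Retnlb encodes a resistin-like protein that goblet cells secrete into the lumen, where it acts on bacteria. It read 9.35, 9.82 and 11.45 in Cygb-/- colons, against 6.14, 7.55 and 10.35 in WT colons. Only replicate 2 of WT, at 10.35, overlapped the Cygb-/- arrays, and the other 7 WT arrays lay at 8.65 or below. The difference was 2.38 (95% interval 1.28 to 3.48), which did not pass over all probe sets (adjusted p = 0.225). In treated colons the difference was 0.80 (adjusted p = 0.717).

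Other antimicrobial proteins leaned the same way. Ang4, an angiogenin of secretory cells, had 11.08, 11.40 and 12.26 in Cygb-/- colons and 8.40, 9.98 and 11.96 in WT colons (difference 1.47, adjusted p = 0.439). Itln1, a lectin that binds microbial sugars, had 6.11, 6.45 and 8.74 in Cygb-/- colons and 4.74, 5.55 and 7.58 in WT colons (1.13, adjusted p = 0.597). For both the ranges overlapped, and the highest array was replicate 2 in either genotype. Of 13 measured antimicrobial genes, 10 had a positive difference, the median was 0.22 against -0.00068 over all genes, and none was called. That median hung on single arrays: it was 0.064 without WT replicate 4, 0.072 without Cygb-/- replicate 7, 0.14 without WT replicate 1 and 0.36 without Cygb-/- replicate 2. S100a9, a subunit of calprotectin in neutrophils, stood at -0.35 (adjusted p = 0.521), from means near the background of 3.45 in Cygb-/- and 3.80 in WT colons.

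Goblet cell markers, a separate list, had a median difference of 0.078, with 11 of 13 positive and all 13 intervals inside 1.5-fold. The mean over the list lay at 10.8 in Cygb-/- and 10.7 in WT colons. On 5 of 8 Cygb-/- arrays that mean lay above every WT array. At an unadjusted p below 0.05, 3 of the 13 were higher, against 8.02% of all genes, and none was called. Absorptive colonocyte markers had 11 of 16 positive and a median of 0.036.

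The remaining genes of the methods' t-test had wider spread. Pcdh17, a protocadherin, had 6.14, 6.72 and 7.12 in Cygb-/- colons and 4.27, 5.43 and 6.27 in WT colons. Of its WT arrays, 4 lay at 4.27 to 4.74 and 4 at 6.13 to 6.27, where they met the lowest Cygb-/- arrays. The difference was 1.37 (adjusted p = 0.267). C130046K22Rik, an uncharacterised transcript of chromosome 11, had 3.56, 4.10 and 5.66 in Cygb-/- colons and 5.14, 5.32 and 5.75 in WT colons (difference -1.04, adjusted p = 0.225).

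Circadian clock genes were examined as 2 lists because they peak at opposite times of day. In the clock, BMAL1 and CLOCK bind E-boxes and switch on Per, Rev-erb and PAR bZIP genes, whose products later switch them off, so that these genes peak when Arntl, the gene of BMAL1, is low. The hour at which the mice were killed is not given in the sources used here. The promoters below are those of the genes of the PER-phase list, described next, that hold the E-box CACGTG (capitals, both strands, the motif being its own reverse complement). They are shown as RefSeq has them in GRCm38.p6, from 250 bases before to 50 after the start for Ciart and as a 60-base window for the others. Ciart lies at chr3:95882179-95882478 (minus strand), Bhlhe41 at chr6:145865541-145865600 (minus), Tef at chr15:81802519-81802578 (plus) and Per1 at chr11:69098756-69098815 (plus).
Ciart: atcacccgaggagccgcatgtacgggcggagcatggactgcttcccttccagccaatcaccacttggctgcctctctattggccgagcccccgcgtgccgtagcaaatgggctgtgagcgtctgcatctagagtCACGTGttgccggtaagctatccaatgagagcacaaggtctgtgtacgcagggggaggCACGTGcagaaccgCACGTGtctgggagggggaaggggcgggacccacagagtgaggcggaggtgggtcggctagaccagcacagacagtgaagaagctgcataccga
Bhlhe41: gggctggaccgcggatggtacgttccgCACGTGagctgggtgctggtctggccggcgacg
Tef: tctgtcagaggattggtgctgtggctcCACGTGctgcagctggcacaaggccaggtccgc
Per1: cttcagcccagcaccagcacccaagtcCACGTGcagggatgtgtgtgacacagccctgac
Of the 9 PER-phase genes measured, 4 (44.4%) hold the motif in this window and 5 do not. Of the 5 BMAL1-phase genes, 1 (20%), Cry1, holds it, and of 27025 genes with a promoter entry, 8.09% do. A match is a description of the letters and not a site of binding.

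All 9 of these genes, the PER-phase list, had a positive difference in untreated colons, with a median of 0.31 against -0.00068 over all genes. None was called, and 4 had an unadjusted p below 0.05, against 8.02% of all genes. All 5 genes of the BMAL1-phase list had a negative difference, with a median of -0.13. Here 3 had an unadjusted p below 0.05, and again none was called.

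Ciart, a repressor of BMAL1 and the gene with 3 copies of CACGTG printed above, had 5.97, 7.35 and 7.67 in Cygb-/- colons and 5.34, 6.39 and 6.60 in WT colons. The difference was 0.88 (adjusted p = 0.521). Dbp, a PAR bZIP transcription factor, had 8.85, 10.19 and 10.33 in Cygb-/- colons and 8.21, 9.38 and 9.91 in WT colons (difference 0.65, adjusted p = 0.685). For both, Cygb-/- replicates 2, 4 and 8 lay inside the WT range and the other 5 above it.

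Arntl mirrored them, with 7.32, 8.15 and 8.66 in Cygb-/- colons and 8.14, 8.58 and 9.29 in WT colons (difference -0.53, adjusted p = 0.597). Averaged over the PER-phase list, arrays read 7.05, 7.85 and 7.99 in Cygb-/- colons and 6.69, 7.33 and 7.60 in WT colons, and 5 of 8 Cygb-/- arrays lay above every WT array. The 9 genes move together with the clock, so that their shared sign is not 9 separate observations.

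In AOM/DSS-treated colons both lists pointed the other way. The PER-phase list had 0 of 9 genes with a positive difference and a median of -0.69. Of these, 5 were called lower in Cygb-/- mice, against 0.167% of all probe sets called for genotype. The BMAL1-phase list had 5 of 5 positive and a median of 0.55. The change in the genotype difference passed for 6 of the 9 PER-phase genes, against 0.148% of all probe sets. For Dbp the difference was -1.44 in treated and 0.65 in untreated colons (interaction -2.08, adjusted p = 0.00976), and for Ciart it was -1.04 in treated and 0.88 in untreated colons (-1.92, adjusted p = 0.0193). For Arntl the interaction was 1.30 (adjusted p = 0.0143). Nr1d2 also passed (-1.0, adjusted p = 0.0143), as did Tef, Hlf and Per3, named after their values were seen, at interactions between -1.36 and -0.84. The part of the hour of killing in these differences was not tested.

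Cell cycle genes leaned upward in untreated Cygb-/- colons. Of 28 measured, 27 had a positive difference, the median was 0.18, and 14 had an unadjusted p below 0.05 against 8.02% of all genes. None was called, and 27 of the 28 intervals lay inside 1.5-fold. Averaged over the list, arrays read 7.17, 7.26 and 7.41 in Cygb-/- colons and 6.99, 7.10 and 7.30 in WT colons. Of the Cygb-/- arrays, 3 of 8 lay above every WT array. Cell cycle genes can move together, so that their shared sign is not 28 separate observations. Aurka, a mitotic kinase, had 6.71, 6.83 and 6.97 in Cygb-/- colons and 6.30, 6.48 and 6.76 in WT colons (difference 0.31, adjusted p = 0.225). Ccna2, a cyclin, had a difference of 0.30, Cdc20, an activator of the anaphase-promoting complex, of 0.23 and Bub1b, a spindle checkpoint kinase, of 0.19. Crypt stem cell and Wnt target genes leaned down instead, with 2 of 11 positive and a median of -0.075.

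Interferon response genes had a median of 0.24, with 13 of 14 positive and 1 at an unadjusted p below 0.05. Without Cygb-/- replicate 6 the median was 0.15. Their mean ran over 6.06, 6.83 and 7.36 in Cygb-/- colons and 6.02, 6.48 and 7.12 in WT colons, so that the genotypes overlapped almost throughout. Zbp1, a sensor of viral nucleic acid, stood at 0.62 (adjusted p = 0.569). P450 and xenobiotic enzymes had 17 of 23 positive and a median of 0.074, with Ugt2b5, a glucuronosyltransferase, at 0.69 (adjusted p = 0.286).

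**Figure D5:**
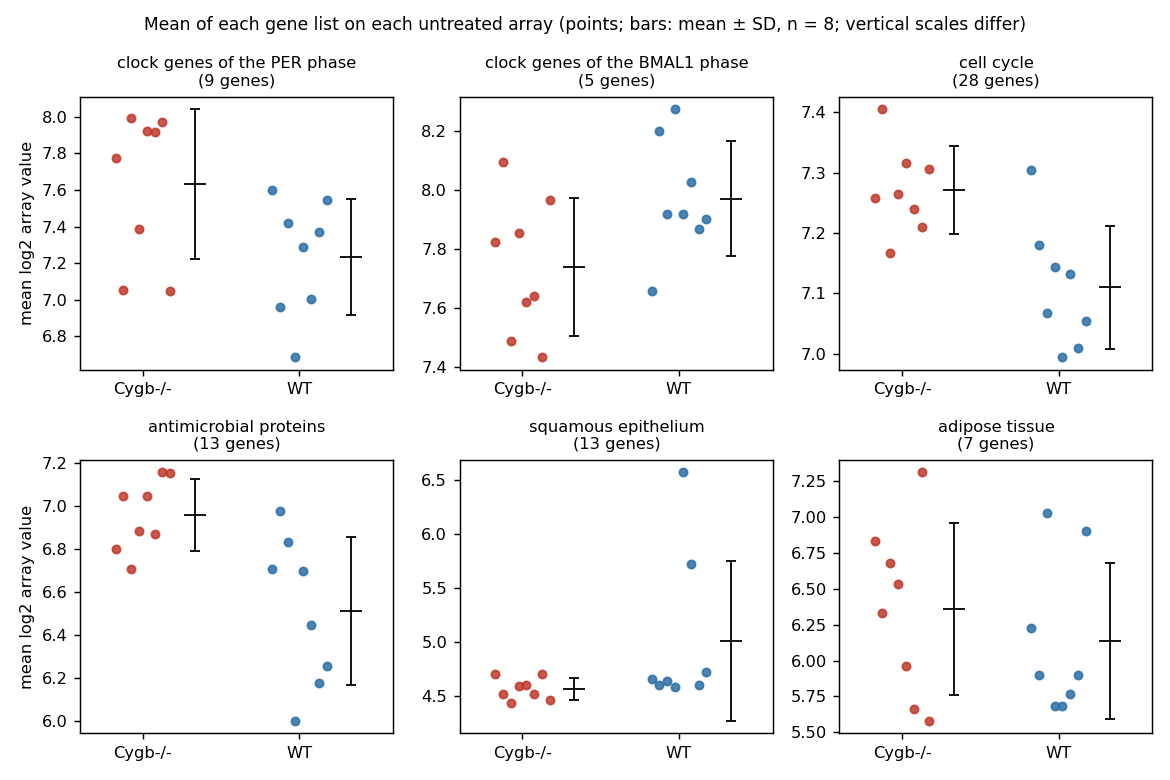
Mean log2 value of 6 gene lists on each untreated array, Cygb-/- arrays (red, left) and WT arrays (blue, right), with the mean ± SD of 8 arrays. Vertical scales differ between panels. In the PER-phase panel 5 Cygb-/- arrays lie above all WT arrays, and in the squamous panel WT arrays at 6.57 and 5.72 stand apart.

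Genes tied to the known chemistry of cytoglobin differed little. Of 21 antioxidant enzymes, 13 had a positive difference, the median was 0.037, and all 21 intervals lay inside 1.5-fold. Their differences ran between -0.08 and 0.27. Hmox1, the heme oxygenase, had the largest value of the heme-handling genes other than Cygb, at 0.51 (95% interval 0.14 to 0.88, adjusted p = 0.529).

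Of 14 nitric oxide and cyclic GMP genes, 3 had a positive difference and the median was -0.045. Gucy1a1 and Gucy1b1, the subunits of the soluble guanylate cyclase that nitric oxide activates, were at -0.20 and -0.17 (adjusted p = 0.614 and 0.651). NADPH oxidases, which make superoxide, had 6 of 8 positive (median 0.069), and hypoxia and glycolysis genes 6 of 11 (median 0.023). Inflammatory cytokines and chemokines had 12 of 20 positive and a median of 0.042, between -0.22 and 0.37, and none was called. Ccl9, a chemokine of myeloid cells and the only one of them at an unadjusted p below 0.05, had 8.42, 8.60 and 8.81 in Cygb-/- colons and 8.16, 8.37 and 8.53 in WT colons. Of its Cygb-/- arrays, 6 of 8 lay above every WT array, and the difference was 0.28 (95% interval 0.13 to 0.43, adjusted p = 0.286). Like Cygb, it lies on chromosome 11.

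Nxpe4 and Nxpe2, epithelial genes of the neurexophilin and PC-esterase family, differed by little between the untreated genotypes. Their differences were 0.02 (95% interval -0.22 to 0.25) and 0.05 (-0.16 to 0.25), and both change sign when the 2 WT arrays with squamous markers are left out (-0.11 and -0.07). In treated colons the difference of Nxpe4 was -4.12, and the interactions were -4.13 (adjusted p = 9.2e-15) for Nxpe4 and -2.60 (adjusted p = 7.68e-08) for Nxpe2. St3gal4, another sialyltransferase, had -2.58 in treated and 0.30 in untreated colons (interaction -2.88, adjusted p = 3.88e-08). E2f8 and Ccnb1ip1 were at 0.08 and 0.09 in untreated colons.

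Other cell types were read from their markers. Mast cell genes had 2 of 12 positive and a median of -0.09, which was -0.056 without Cygb-/- replicate 7 and -0.061 without WT replicate 8. Only Kit and Tph1, which other cells of the colon also express, reached a mean of 5, and the other 10 lay near the background. The mast cell carboxypeptidase gene Cpa3 had 3.28, 3.84 and 4.36 in Cygb-/- colons and 3.70, 4.55 and 5.10 in WT colons (difference -0.78, adjusted p = 0.282), and the chymase Cma1 stood at -0.36 (adjusted p = 0.529). Endothelial genes had 1 of 9 positive (median -0.092, Lyve1 of lymphatic vessels at -0.28, adjusted p = 0.225). Enteric neuron and glia genes had 1 of 10 (median -0.09). Macrophage, T cell and neutrophil genes had 6 of 12, 5 of 12 and 5 of 12, and none of these genes was called.

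Markers of squamous epithelium were high on single arrays. The mean of 13 squamous epithelium genes was 6.57 and 5.72 on WT replicates 5 and 6 and between 4.43 and 4.72 on the other 14 arrays, where 4 of 8 Cygb-/- arrays lay below every WT array. Its median difference was -0.39, and -0.077 without those arrays. Krt4, a keratin of stratified epithelium, ran over 3.49 to 4.57 in Cygb-/- colons and 3.99 to 9.15 in WT colons. Anxa8, on the same list, had 6.50, 7.18 and 7.97 in Cygb-/- colons and 7.68, 8.03 and 8.70 in WT colons (difference -0.83, adjusted p = 0.385). Its difference stayed between -0.87 and -0.81 under all alternatives other than leaving out 1 array, the one without WT replicates 5 and 6 included. Anxa8 is part of the list mean, so that the 4 low Cygb-/- arrays need not reflect the other squamous genes.

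Adipose markers were high on arrays of both genotypes, with means over 7 genes of 7.31 on Cygb-/- replicate 7 and of 7.02 and 6.90 on WT replicates 3 and 8. Those are the 3 arrays left out above, and Cygb-/- replicate 1 followed at 6.83. The median difference of that list was 0.31, and 0.14 without Cygb-/- replicate 7 alone. The part of these markers in the differences above was not tested beyond leaving arrays out.

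Between mice of one genotype, a few genes varied far more than the typical 0.159. The widest was Car3, a carbonic anhydrase of fat and muscle, with a standard deviation of 1.90 and values of 5.22 to 10.58 in Cygb-/- and 4.64 to 10.19 in WT colons. Immunoglobulin variable genes followed, the widest at 1.52, and their near-identical relatives can share probes. Krt4 (1.39), Psca (1.23) and Krt6a (1.04), squamous genes, varied through the WT arrays named above. Pla2g4c, a phospholipase A2, owed its 1.28 to Cygb-/- replicate 2, at 10.04, and Retn, an adipocyte hormone in mice, had 1.24. Retnlb, at 1.14, was also among the 15 most variable genes.

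Principal components of the 16 arrays showed how much of this variation went with genotype. The first held 15.9% of the variance, and its scores did not pass the test between the genotypes (difference of mean scores, two-sided exact permutation test, p = 0.684). Of the first 5 components, component 4, with 7.08%, separated them best, with mean scores of 8.79 ± 12.6 in Cygb-/- and -8.79 ± 11.1 in WT mice (SD, n = 8 each; exact permutation p = 0.00995, adjusted over 5 components 0.0497). On it, 7 of 8 Cygb-/- arrays and 2 of 8 WT arrays were above 0, and Cygb-/- replicate 5 lay at -18.5.

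The genes with the largest weights on the Cygb-/- side of component 4 were Retnlb, BC018473, Car3, Gdpd3, Pla2g4c, Pnliprp2, Itln1, Ang4 and Retn. On the WT side were, in order, Cygb, Krt4, an immunoglobulin kappa variable gene (difference -2.02), Psca, Krt6a, Cnfn, an immunoglobulin heavy variable gene (difference -1.10), Ppbp, Sprr3 and Krt13. Immunoglobulin genes, keratins and a platelet chemokine, Ppbp, thus stood on it beside the called genes Cygb and BC018473. Without the 3 arrays highest for adipose markers the smallest adjusted p of the 5 components was 0.211, and without chromosome 11 it was 0.0618. With each probe set scaled to unit variance it was 0.00544, and without the WT arrays high for squamous markers 0.0433. No component passed without Cygb-/- replicate 4, 6 or 7 or WT replicate 1, 2, 3, 7 or 8, with a smallest adjusted p of up to 0.132. In these alternatives the smallest value need not belong to component 4.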

How the data were processed

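Total RNA of the distal colon was amplified and hybridised to Affymetrix Mouse Gene 2.0 ST arrays. The deposited values are log2 expression measures that the authors made with RMA in the oligo package and normalized between arrays. No version of RMA and no genome build are given in the sources used here. Gene names came from the platform annotation: 23521 probe sets had 1 gene, 1820 several and 16004 none. Of all probe sets, 1395 share their values with another, which leaves 40543 distinct profiles. The number of arrays limits the precision: the median half-width of the 95% interval of a gene's difference was 0.169.

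The 2 untreated groups were fitted alone in R 4.3.3 by lmFit and eBayes of limma 3.58.1, with a two-sided moderated test at an adjusted p of 0.05 (Benjamini-Hochberg, 41345 probe sets). Where a gene had several singly annotated probe sets, the one with the highest mean over 29 arrays was used. The treated groups were fitted alone, and the interaction was fitted over 4 group means of all arrays. Principal components used centred probe sets and exact permutation tests. On data simulated at these group sizes, 15, 38, 45 and 50 of 50 genes were recovered at 1.25, 1.5, 2 and 3-fold, and 5 of 153 calls were wrong. The real comparison gave 9 calls, and an adjusted p is harder to pass when fewer probe sets change. Its recovery may therefore be lower than in the simulation.

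Gene order and chromosomes came from RefSeq of GRCm38.p6, as did the printed sequences. Gene lists were described by counts and medians without a test. Members and lists were chosen with earlier results of these data known. Named genes were the called genes, the 10 highest and 10 lowest of the rest by moderated t, those of the methods' t-test, those the study names, up to 4 of each list by unadjusted p, the extreme loadings of component 1 and of any component that passed, the 5 nearest neighbours of Cygb on each side and the 15 most variable genes. Tef, Hlf and Per3 were added after their values were seen. Other scalings, filters, variance models, tests, sets of arrays and a replicate block were run as alternatives.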

Additional observations from a re-analysis of the deposited data

Results flagged for a closer look

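A gap of 1 array from the rest was looked for in 156 groups of 8 values, and 9 exceeded Dixon's critical value of 0.526, where chance gives about 1 in 20 groups. For Kpna2 the highest Cygb-/- array, replicate 8, lay at 7.10 with the next at 6.75 (gap over range 0.530). For Itln1 it was Cygb-/- replicate 2, at 8.74 with the next at 7.34 (0.531), and for Pla2g4c the same array, at 10.04 with the next at 6.53 (0.694). B4galt6 was lowest on Cygb-/- replicate 7, at 8.44 with the next at 8.52 (0.544), and Ccnb1ip1 highest on Cygb-/- replicate 1, at 3.27 with the next at 2.87 (0.541).

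Among WT arrays, Mir105 was lowest on replicate 4, at 2.56 with the next at 2.81 (0.676), and so was Cpa3, at 3.70 with the next at 4.52 (0.582). St6galnac1 was lowest on WT replicate 7, at 4.29 with the next at 4.94 (0.528). On component 4, Cygb-/- replicate 5 lay at -18.5 with the next at 4.23 (0.542).

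For 14 of 67 genes the genotype difference itself differed between AOM/DSS-treated and untreated colons by limma's interaction test, which 61 of 41345 probe sets (0.148%) passed. The 67 genes are no sample of the array: Nxpe4 and Nxpe2 are named by the study for this contrast, and Tef, Hlf and Per3 were added after their values were seen. The interaction was -4.13 for Nxpe4, -2.60 for Nxpe2, -2.88 for St3gal4, 1.99 for BC018473, 1.49 for Ccnb1ip1, 0.64 for E2f8 and -0.84 for Htra4. Among clock genes it was -2.08 for Dbp, -1.92 for Ciart, -1.36 for Per3, -1.31 for Tef, -1.0 for Nr1d2, -0.84 for Hlf and 1.30 for Arntl. Ccnb1ip1 lay near the background in untreated colons of both genotypes.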

How the results depend on the processing

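The main counts of 5 higher and 4 lower probe sets became 14 and 20 with only probe sets of mean at least 5, 9 and 12 with only singly annotated ones, and 11 and 12 with a trended, robust variance. They became 9 and 7 with all 29 arrays in the fit and 15 and 12 with the methods' t-test. Over these settings, in the order given, 12 of 34, 11 of 21, 10 of 23, 9 of 16 and 6 of 27 calls lay on chromosome 11. The other calls lay on other chromosomes or had no chromosome assigned. Fewer were called without the 2 WT arrays high for squamous markers (4 and 2) and without the 3 arrays highest for adipose markers (3 and 2). These last choices, and leaving out chromosome 11 (0 and 0 of 39600 probe sets, 2704 at an unadjusted p below 0.05), were made after seeing the data. With the replicate block, 3 and 2 were called, 5 of them on chromosome 11. Nags, Kpna2, Llgl2 and Mir105 lost their call in that limma fit (adjusted p = 0.0893, 0.241, 0.390 and 0.241). Residuals of same-numbered arrays correlated at -0.0519 on average (-0.161 to 0.0486, 0 of 8 over 0.1). So few pairs cannot settle whether the shared numbers pair the arrays. Without the adipose arrays, 5 calls also lay on chromosome 11.

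Without each array in turn, higher calls ranged from 4 to 7, lower calls from 3 to 7, calls on chromosome 11 from 7 to 10, called genes also called in treated colons from 3 to 4, those with an interaction from 1 to 2, intervals inside 1.5-fold from 21662 to 21707 and the smallest adjusted p of a component from 0.00777 to 0.132, with 8 of 16 passing. That p was 0.087 with the filter at a mean of 5, 0.211 without the adipose arrays and 0.0618 without chromosome 11. It was 0.00544 with each probe set scaled to unit variance and 0.0433 without the squamous arrays. The filter tested 19421 probe sets, which left 12403 intervals inside 1.5-fold, and it dropped Mir105 and BC018473, which left 0 interactions. Array weights gave 2. Over 67 genes, 1813 of 1919 comparisons kept their direction and side of the threshold. Of the rest, 37 lost a call, 61 gained one and 8 changed sign, all of Nxpe4 and Nxpe2: -0.11 and -0.0707 without the squamous arrays, and, without 1 array, -0.0459 to 0.0561 for Nxpe4 and -0.0129 to 0.0839 for Nxpe2. Nags was lost with all 29 arrays (adjusted p = 0.359) and Mir105 in 7 of 12 settings other than leaving out an array. Over the 9 lists refitted, all 198 medians moved by less than 1 SD of the list's mean between arrays of a genotype, but without 1 array those of antimicrobial (0.064 to 0.36), adipose (0.14 to 0.45), interferon (0.15 to 0.34), mast cell (-0.12 to -0.056) and squamous genes (-0.48 to -0.19) each moved by over 1.5 times at least once. The cause of these changes was not tested.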
